A study of Mus musculus with 4 samples.

Results

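Nuclei with Slc17a6 transcripts and no transcript of Tcf7l2 were selected from the 2 single-nucleus RNA-seq (snRNA-seq) libraries labelled striatum, and their genes were described here. A nucleus was selected when it held at least 2 unique molecular identifiers (UMIs, counts of single transcripts) of Slc17a6, 0 UMIs of Tcf7l2, 0 of Gad1 and Gad2 together, at most 1 of Slc17a7, and at most 1 over the glial and vascular genes Mog, Mag, Aqp4, Csf1r and Cldn5. The rule selected 561 of 41190 nuclei, of 78728 nuclei in the series. Of these, 301 of 23724 came from the AAV-CTRL library (1.27%, 95% exact binomial interval 1.13 to 1.42%) and 260 of 17466 from the AAV-VEGF-C library (1.49%, 1.31 to 1.68%). The Slc17a6 share was set by the rule, and the 2 intervals overlapped.

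The mice were male C57BL/6J animals whose brains were taken at 8 weeks of age, after an adeno-associated virus (AAV) had been injected into the cisterna magna. AAV-VEGF-C made the brain secrete murine VEGF-C, a lymphatic and vascular growth factor. The AAV-CTRL vector also encoded a secreted protein, a soluble piece of its receptor VEGFR3 that does not bind VEGF-C, joined to an immunoglobulin tail. Brains of an AAV group were pooled before nuclei were isolated, and each AAV label had 1 striatum library, so the AAV label, the library and the pool of animals cannot be told apart, no test between labels was possible, and every interval below covers counting error alone.

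Slc17a6 encodes VGLUT2, the transporter that loads glutamate into synaptic vesicles in most excitatory neurons of the thalamus, hypothalamus, midbrain and hindbrain. Neurons of the adult cortex rely mainly on Slc17a7, and the projection neurons of the striatum are GABAergic and need neither. Tcf7l2, a transcription factor of the Wnt pathway, marks most thalamic excitatory neurons, so a rule that removes it leaves Slc17a6 neurons of other subcortical regions, and also any nucleus in which the gene was missed.

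The libraries labelled striatum held less of the striatal genes than the cortex libraries. Ppp1r1b, which encodes DARPP-32, was at 18.1 counts per 1000000 UMIs (CPM) in each striatum library and at 62.6 and 74.8 CPM in the cortex libraries, and Adora2a was at 8.04 and 8.37 against 26.8 and 32.1 CPM. Slc17a6 went the other way, at 144 and 172 CPM in the striatum libraries and 15.9 CPM in each cortex library. The label striatum therefore stands here for the library and not for the source of a nucleus.

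Slc17a6 (ENSMUSG00000030500, chromosome 7, 51622006 to 51671119, plus strand, GRCm38) reached 2 UMIs in 2359 nuclei of AAV-CTRL and 2408 of AAV-VEGF-C. Tcf7l2 (ENSMUSG00000024985, chromosome 19, 55741820 to 55933654, plus strand) removed 1472 and 1624 of them (62.4% and 67.4%), and Gad1 or Gad2, the enzymes that make GABA, removed 1219 and 1243. The glial and vascular genes removed 489 and 598. Tcf7l2 was the sole reason for removal in 560 and 565 nuclei, which are called Tcf7l2-positive nuclei below. Of those, 152 and 146 held just 1 UMI of Tcf7l2.

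Most selected nuclei stood at the edge of the rule. In AAV-CTRL 197 nuclei held 2 UMIs of Slc17a6, 73 held 3 and 31 held more, with a maximum of 9. In AAV-VEGF-C these numbers were 155, 63 and 42, with a maximum of 10. Just outside, 705 and 437 nuclei met every other condition with 1 UMI of Slc17a6, and their median depth was 1985 and 2164 UMIs. Selected nuclei were deeper, with medians of 4272 and 4793.5 UMIs and of 2402 and 2604 genes.

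Slc17a6 UMIs were also found in nuclei of a cell type that should lack the gene. Among nuclei chosen by at least 2 UMIs of the oligodendrocyte genes Mog and Mag alone, 1224 of 4774 in AAV-CTRL (25.6%, 24.4 to 26.9%) and 1281 of 4455 in AAV-VEGF-C (28.8%, 27.4 to 30.1%) held a UMI of Slc17a6, and 293 (6.14%) and 386 (8.66%) held at least 2. These nuclei had median depths of 1991.5 and 2301 UMIs, below those of the selected nuclei. How many selected nuclei met the Slc17a6 minimum through RNA from outside the nucleus was not tested. Levels are therefore given beside those in oligodendrocyte nuclei, defined as at least 2 UMIs of Mog and Mag and none of Slc17a6, Gad1, Gad2 or Slc17a7 (1691 and 1510 nuclei, median depths 1778 and 2064 UMIs).

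By neuronal genes the selected nuclei were mostly, but not all, neurons. The 8 pan-neuronal genes together were at 22307 and 20494 CPM, against 23670 and 22144 CPM in Tcf7l2-positive nuclei and 5877 and 5326 CPM in oligodendrocyte nuclei. Rbfox3, which encodes the neuronal nuclear protein NeuN, was found in 201 of 301 selected nuclei (66.8%) and in 151 of 260 (58.1%), compared with 16.7% and 20.1% of oligodendrocyte nuclei. Syt1, a calcium sensor of synaptic vesicles, was at 1555 and 1551 CPM against 528 and 544 CPM. Snap25, a protein of vesicle fusion, separated them less, at 899 and 820 against 781 and 726 CPM.

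Clustering of the 561 nuclei gave 7 groups, of which 3 held neurons without markers of another cell type and 4 did not. Groups 1, 3 and 4 are called the neuron groups. They held 203 of 301 nuclei in AAV-CTRL (67.4%, 61.8 to 72.7%) and 165 of 260 in AAV-VEGF-C (63.5%, 57.3 to 69.3%), with median depths of 4975 and 5929 UMIs. The other 4 groups, in which at least 3 listed genes of a glial or olfactory sensory type stood at least 2-fold above the other selected nuclei, held 98 and 95 nuclei with median depths of 2139 and 1896 UMIs. The data thus go against calling every selected nucleus a subcortical glutamatergic neuron. The genes that define a group were used to make it, so their values are a description.

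Group 1, of 136 nuclei (70 in AAV-CTRL and 66 in AAV-VEGF-C, median 5773 UMIs), was led by Pifo, Tac1, Trpc4, Baiap3 and Cadps2. Tac1, the precursor of substance P, was found in 24.3% of its nuclei at 123 CPM, against 8.47% and 29.9 CPM in the other selected nuclei. Of 38 nuclei with Lmx1a, a transcription factor of ventral midbrain and posterior hypothalamic neurons, 22 were in this group, at 45.4 against 16.7 CPM. Esr1, the estrogen receptor, was at 34.6 against 13.8 CPM. No list of regional genes reached 3 markers here, so the group takes no regional name. At clustering resolution 1.5, a group of 91 nuclei that was also led by Cadps2, Tac1 and Pifo held 4 dopaminergic markers (below).

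Group 3, of 119 nuclei (63 and 56, median 4117 UMIs), was led by Dlk1, Parl, Ece2, Plekhn1 and Tcea1. It had 3 of the 6 genes listed for the paraventricular and supraoptic hypothalamus above the marker fold: Sim1 (73.7 against 23 CPM), Avp (431 against 70.9 CPM) and Oxt (985 against 110 CPM). Sim1 is a transcription factor that these neurons need to form, and Avp and Oxt encode their hormones vasopressin and oxytocin. Sim1 was found in 18.5% of the group. Since none of the 3 was among its 5 leading genes and most UMIs of Avp and Oxt sat in few nuclei (below), the group is described by its number.

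Group 4, of 113 nuclei (70 and 43, median 5753 UMIs), was led by L3mbtl4, Ntng2, Syt2, Pglyrp1 and Myo16. Syt2, the fast synaptotagmin of many brainstem and midbrain synapses, was found in 55.8% of its nuclei at 282 CPM against 22.1% and 85.5 CPM in the rest. Glra1, a glycine receptor subunit, was found in 37.2% against 15%. Lhx9, a transcription factor of several diencephalic and midbrain neurons, was found in 19.5% against 5.58%.

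The remaining groups carried other genes. Group 2 (125 nuclei, 53 and 72) was shallow, with a median of 1791 UMIs, and was led by Ptgds (2566 CPM), Hbb-bs (2173 CPM), Ttr (657 CPM), Plekhg1 and Hba-a1, which include genes of the meninges or oligodendrocytes, of red blood cells and of the choroid plexus. It held 3 of 4 oligodendrocyte genes and also 4 of 6 thalamic genes past the marker fold, among them Prkcd (195 against 25.7 CPM). Rbfox3 was found in 35.2% of its nuclei against 70.6% of the others, but its level was 408 against 313 CPM. Syt1 (1776 against 1526 CPM), Snap25 (1209 against 820 CPM) and Stmn2 (361 against 249 CPM) were also higher, and Celf4 was lower (541 against 764 CPM). The low share of nuclei with Rbfox3 thus goes with shallow depth and does not show that the group lacks neurons. At clustering resolution 1.5 these lists stood in separate groups. A group of 31 nuclei (21 and 10, median 2967 UMIs), led by Plekhg1, Col27a1 and Synpo2, held 4 thalamic genes and no other list with 3 markers. A group of 107 nuclei, led by Ptgds and Hbb-bs, held 3 oligodendrocyte genes and fewer than 3 thalamic ones. Group 5 (29 nuclei, 19 and 10) was astrocyte-like, with Slc1a2, Slc1a3 and Gja1 all past the fold and Gja1 in 75.9% of nuclei, and 5 of its nuclei were called doublets.

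Group 6 (22 nuclei, 18 and 4) was olfactory sensory-like in part. It held 4 of 7 listed genes past the marker fold, with Omp and Stoml3 each in 31.8% of its nuclei, Ano2 in 27.3% and Cnga2 in 22.7%, and none of them in its 4 AAV-VEGF-C nuclei. At resolution 1.5, a group of 11 nuclei, all of AAV-CTRL, held 5 of the 7 genes. Group 6 also held Ebf3, a transcription factor of several neuron types, in 81.8% of its nuclei at 779 CPM. Such neurons lie in the nasal epithelium and also use VGLUT2. Group 7 (17 nuclei, 8 and 9) held all 3 genes of oligodendrocyte precursors and all 4 of oligodendrocytes, and was left unnamed. Pdgfra, the receptor that marks precursors, was in 1 AAV-CTRL and 7 AAV-VEGF-C nuclei of it.

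**Figure D1:**
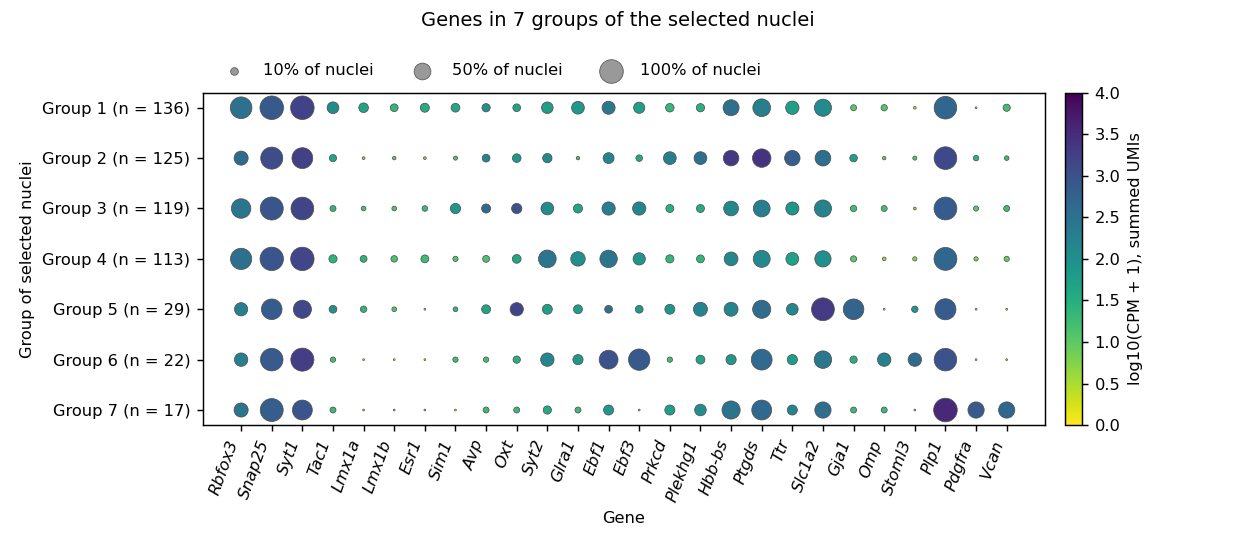
Genes (x axis) in the 7 groups of selected nuclei (y axis, n nuclei of both libraries); the area of a point grows with the percent of nuclei with a UMI, and its colour is log10 of CPM + 1 of the summed UMIs. Groups 1, 3 and 4 have Rbfox3 in most nuclei, whereas Gja1, Omp and Pdgfra are high in groups 5, 6 and 7.

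Some transcription factor genes of the hypothalamus and midbrain, such as Sim1 and Lmx1a, were higher in the selected nuclei than in Tcf7l2-positive nuclei. Against GABAergic nuclei the summed lists varied. The 6 subthalamic genes, Lmx1a among them, were at 58.1 and 69 CPM against 12 and 11.1 CPM. The 5 midbrain genes were at 34.3 and 49.5 CPM against 53.1 and 47.2 CPM. The 3 mammillary genes were at 22.4 and 32.5 CPM against 27.8 and 29.5 CPM. Sim1 was at 32.8 CPM in AAV-CTRL (44 UMIs in 24 nuclei, 95% Poisson interval 23.8 to 44) and at 34.1 CPM in AAV-VEGF-C (42 UMIs in 26 nuclei, 24.6 to 46.1). In Tcf7l2-positive nuclei it was at 5.73 and 6.88 CPM, and in oligodendrocyte nuclei at 3.69 and 5.15 CPM. The intervals of the selected nuclei did not overlap those of either set, in both libraries. With every nucleus thinned to 2000 UMIs, and 52 and 51 shallower selected nuclei left out, Sim1 was found in 5.62% and 7.66% of selected nuclei and in 0.796% and 0.364% of oligodendrocyte nuclei.

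Lmx1a was at 26.1 CPM (18.2 to 36.3, 22 nuclei) and 26 CPM (17.8 to 36.7, 16 nuclei), against 5.44 and 5.45 CPM in Tcf7l2-positive nuclei. Its relative Lmx1b was at 11.9 and 17 CPM, against 2.29 and 5.45 CPM there. The pair shared nuclei: 8 of the 22 Lmx1a nuclei of AAV-CTRL and 9 of the 16 of AAV-VEGF-C also held Lmx1b. Other genes listed for the subthalamic region were rare: Barhl1, Barhl2 and Foxa1 had between 3 and 9 UMIs a library and Barhl1 and Barhl2 were never found in 1 nucleus.

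Adcyap1, which encodes the peptide PACAP, was at 25.3 and 26.8 CPM against 8.51 and 8.01 CPM in oligodendrocyte nuclei. It belongs to the ventromedial hypothalamus list and was found in 32 and 27 nuclei. Nr5a1, the factor that defines that nucleus, had 2 and 1 UMIs, and Fezf1 had 5 and 3. Genes of that region that are also used elsewhere were thus present, and its defining gene was near 0.

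The Ebf genes, helix-loop-helix factors of differentiating neurons, were well covered. Ebf3 was at 103 CPM (86.4 to 122) and 90.1 CPM (74.1 to 108), against 40.9 and 45.8 CPM in Tcf7l2-positive nuclei and 19.8 and 14.3 CPM in oligodendrocyte nuclei. Ebf1 was at 257 and 260 CPM against 173 and 145 CPM in Tcf7l2-positive nuclei. Of the Ebf3 nuclei, 40 of 66 and 26 of 61 also held Ebf1. Group 6 held 51 of the Ebf3 UMIs of both libraries.

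Genes listed for other regions varied in level. All 11 hindbrain genes together gave 8 and 3 UMIs, and Phox2a had 0 in both libraries, which allows a share of up to 0.997% and 1.15% of nuclei with a UMI. The 9 telencephalic genes together were at 107 CPM (89.8 to 126) and 113 CPM (94.8 to 133), above the 73.7 and 70.1 CPM of oligodendrocyte nuclei and below the 158 and 153 CPM of GABAergic nuclei. Bcl11b, a factor of both cortical and striatal projection neurons, gave 86 and 92 of these UMIs in 58 and 55 nuclei, while Neurod6, Tbr1 and Emx1 had at most 7 UMIs a library. The 4 Cajal-Retzius genes, among them Reln, were at 92.4 and 89.2 CPM against 47.6 and 50.6 CPM in oligodendrocyte nuclei and 113 and 121 CPM in GABAergic nuclei. Otx2, a factor of the midbrain among other regions, had 11 and 6 UMIs, and Lhx1 had 20 and 27. Zic1, a gene of the medial thalamus and of cerebellar granule cells, was at 62.6 and 65.7 CPM, below the 105 and 116 CPM of oligodendrocyte nuclei. The source of its UMIs was not tested.

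**Figure D2:**
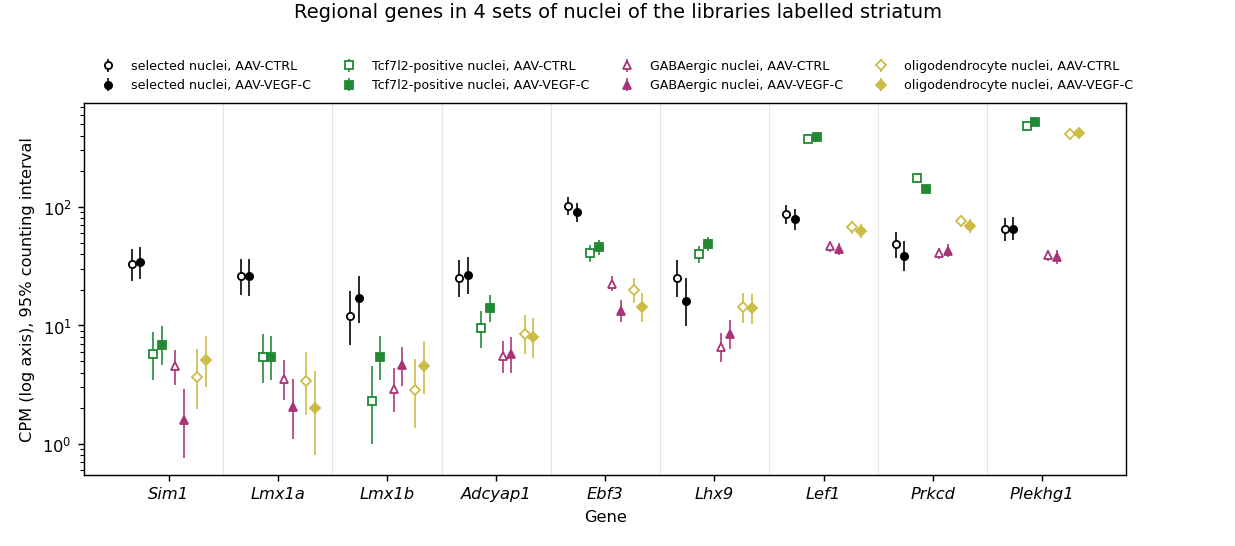
CPM of 9 regional genes (log axis) in selected, Tcf7l2-positive, GABAergic and oligodendrocyte nuclei; open symbols are AAV-CTRL, filled symbols AAV-VEGF-C, and bars are 95% Poisson intervals. Sim1, Lmx1a and Ebf3 are higher in selected nuclei than in the other 3 sets, whereas Lef1 and Prkcd are higher in Tcf7l2-positive nuclei.

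Some neuropeptide genes were concentrated in single nuclei and others were spread. In AAV-CTRL the nucleus with most UMIs held 67.2% of those of Oxt, 67.2% of Avp and 64% of Cartpt, whereas for Cck it held 4.44% in AAV-CTRL and 6.43% in AAV-VEGF-C, and for Tac1 21.8% and 17%. Oxt (ENSMUSG00000027301, chromosome 2, 130576173 to 130577054, plus strand) gave 707 UMIs in AAV-CTRL, of which 475 lay in 1 nucleus and 119 in another, and 40 UMIs in AAV-VEGF-C with at most 9 in a nucleus. The nucleus with 475 UMIs belonged to group 3 and also held 3 UMIs of Sim1 and 3 of Slc17a6. The nucleus with 119 belonged to the astrocyte-like group, held 6 UMIs of Slc1a2 and had a depth of 2264 UMIs. In oligodendrocyte nuclei Oxt was at 110 and 94.1 CPM, above the 32.5 CPM of the AAV-VEGF-C selected nuclei. The AAV-VEGF-C nucleus with 9 UMIs was a called doublet of the astrocyte-like group, with a depth of 11005 UMIs. The source of the AAV-VEGF-C Oxt UMIs was not tested.

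Avp (ENSMUSG00000037727, chromosome 2, 130580620 to 130582554, minus strand) showed the same shape. In AAV-CTRL it gave 311 UMIs, of which 209 lay in 1 group 3 nucleus that also held 3 UMIs of Pdyn and 4 of Oxt, and 70 in a group 1 nucleus with 18 of Oxt and 3 of Sim1. In AAV-VEGF-C it gave 62 UMIs, of which 27 lay in 1 nucleus with 1 UMI of Sim1. That nucleus belonged to group 2, the shallow group with oligodendrocyte, blood and choroid plexus genes, and had a depth of 2641 UMIs.

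Other peptides marked single nuclei as well. Of the 111 UMIs of Cartpt in AAV-CTRL, 71 lay in 1 nucleus, which also held all 7 UMIs of Ucn, the gene of urocortin. Pmch, the melanin-concentrating hormone gene of the lateral hypothalamus, had 17 of its 41 UMIs in 1 AAV-CTRL nucleus and at most 4 in any AAV-VEGF-C nucleus. Its level in selected nuclei, 30.6 and 58.4 CPM, was below the 46.2 and 116 CPM of oligodendrocyte nuclei. Over 43 listed peptide and transmitter genes, 12 of 301 and 8 of 260 nuclei held at least 10 UMIs of a gene.

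**Figure D3:**
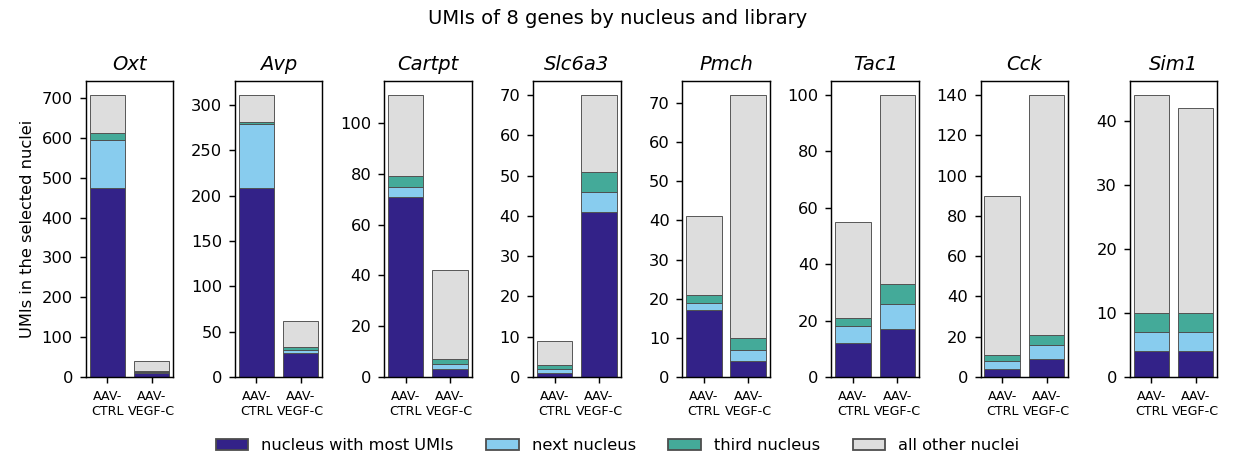
UMIs of 8 genes in the selected nuclei of both libraries, split by nucleus: the nucleus with the most UMIs, the next, the third, and all others (y axes start at 0 and differ between genes). For Oxt, 475 of 707 AAV-CTRL UMIs lie in 1 nucleus, whereas for Sim1 no nucleus holds more than 4.

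Genes of other transmitters were mostly low, and some were concentrated in single nuclei. Slc32a1, the vesicular GABA transporter, was at 51.4 and 45.4 CPM, found in 54 and 46 nuclei. It was at 239 and 272 CPM in GABAergic nuclei and at 81.9 and 74.9 CPM in oligodendrocyte nuclei. How much of it came from outside the nucleus was not tested. Slc17a8, the third glutamate transporter, had 2 and 5 UMIs. Slc6a3, the dopamine transporter, gave 9 UMIs in 9 AAV-CTRL nuclei and 70 UMIs in 22 AAV-VEGF-C nuclei, of which 41 lay in 1 group 3 nucleus. Oligodendrocyte nuclei held 16.2 and 25.2 CPM of it, above the 6.71 CPM of the AAV-CTRL selected nuclei. That nucleus also held 20 UMIs of Slc18a2, 14 of Ddc, 2 of Th and 1 of Lmx1a, together with 2 of Slc17a6. A second AAV-VEGF-C nucleus, of group 1, held 10 UMIs of Slc18a2, 7 of Ddc and 5 of Slc6a3. Dopaminergic genes also marked a group at clustering resolution 1.5. That group, of 91 nuclei (43 in AAV-CTRL and 48 in AAV-VEGF-C), held 4 of the 6 listed genes past the marker fold. How far single nuclei carried this was not tested. Nos1, the neuronal nitric oxide synthase, was more widely spread, at 46.2 CPM in 44 nuclei and 73 CPM in 51 nuclei.

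Receptor genes of excitatory and inhibitory transmission were well covered. The 18 ionotropic glutamate receptor genes together were at 8873 and 8579 CPM, against 9866 and 9204 CPM in Tcf7l2-positive nuclei and 3958 and 3603 CPM in oligodendrocyte nuclei. The AMPA receptor gene Gria2 was found in 86% and 84.6% of selected nuclei at 950 and 849 CPM. Grin2b, an NMDA receptor subunit, was at 715 and 799 CPM. Among metabotropic receptors, Grm7 was at 1415 and 1321 CPM and Grm8 at 476 and 363 CPM, the latter above the 299 and 326 CPM of Tcf7l2-positive nuclei by less than 2-fold. Of inhibitory receptor genes, the glycine receptor gene Glra1 was at 61.1 and 75.5 CPM, against 12.5 and 12.3 CPM for Glra1 in oligodendrocyte nuclei.

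Against the 560 and 565 Tcf7l2-positive nuclei, selected by the same rule except for Tcf7l2 itself, few genes differed by 2-fold in both libraries. Of 7397 genes with at least 100 UMIs per library over both sets, 27 (0.365%) were at least 2-fold higher in the selected nuclei of both libraries and 122 (1.65%) at least 2-fold lower. Nuclei of 1 library are not replicates, so these counts have no test. Within the neuron groups alone the counts were 45 of 7136 (0.631%) and 159 (2.23%).

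Thalamic genes were among the lower ones, a direction set in part by the rule, which divides the sets by Tcf7l2. Of 5 tested members of that list, 4 were at least 2-fold lower in both libraries and 0 higher, with median log2 ratios of -1.89 in AAV-CTRL and -1.87 in AAV-VEGF-C. Plekhg1 was at 64.8 and 65.7 CPM against 484 and 518 CPM, though oligodendrocyte nuclei held 416 and 418 CPM of it. Ntng1, an axon guidance gene that is high in thalamic relay neurons, was at 618 and 696 CPM against 2294 and 2545 CPM. Lef1, a relative of Tcf7l2 in the Wnt pathway, was at 87.2 and 79.5 CPM against 377 and 391 CPM. Prkcd was at 48.4 and 38.9 CPM against 174 and 143 CPM. Rora, the remaining member, was lower by less than 2-fold.

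Genes outside the lists were found on both sides. Abhd12b had 2 UMIs in the selected nuclei of each library and was at 63.3 and 51.7 CPM in Tcf7l2-positive nuclei. Synpo2, an actin-binding protein gene, was at 49.9 and 50.3 CPM against 472 and 506 CPM, and Vav3 at 93.9 and 123 CPM against 767 and 678 CPM. Receptor subunits of thalamic neurons were among the lower genes: Gabrd, a subunit of extrasynaptic GABA-A receptors, was at 11.2 and 13.8 CPM against 68.7 and 65.9 CPM, and Gabra4 at 82 and 83.6 CPM against 331 and 326 CPM. In the other direction stood Dlk1, a Notch ligand relative found in hypothalamic neurons (81.2 and 95.7 CPM against 24.9 and 31.1 CPM), Ebf2 (159 and 107 CPM against 35.8 and 35.3 CPM, and 103 and 99.5 CPM within the neuron groups), Zfp536 (178 and 161 CPM against 58.7 and 64.3 CPM) and Nos1 (46.2 and 73 CPM against 19.2 and 25.1 CPM). Avp was higher as well, but its 311 and 62 UMIs rested on the few nuclei above.

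Against 2016 and 1298 GABAergic nuclei (at least 2 UMIs of Gad1 and Gad2, none of Slc17a6 or Tcf7l2), 17 of 9616 genes (0.177%) were at least 2-fold higher in the selected nuclei of both libraries and 52 (0.541%) lower. Within the neuron groups 19 of 9496 genes (0.200%) were higher and 80 (0.842%) lower. Among the higher genes were Ebf2 (159 and 107 CPM against 27.1 and 15.3 CPM), Ebf3, Tmem163, a zinc transporter gene (321 and 305 CPM against 59.6 and 65.1 CPM), Bnc2 (62.6 and 76.3 CPM against 17.4 and 7.63 CPM) and Cacna2d1, a calcium channel subunit gene (859 and 914 CPM against 277 and 223 CPM). Bdnf, the neurotrophin, was at 44.7 and 39.8 CPM against 16.4 and 16 CPM. Genes that go with the GABAergic state were lower, a direction set by how the sets were chosen. Selected nuclei held 0 UMIs of Gad1 and Gad2, and GABAergic nuclei at least 2. Dlx6os1 had 4 and 6 UMIs, at 2.98 and 4.87 CPM against 90.8 and 73.4 CPM, and Slc32a1 was lower by 2.21 and 2.58 on the log2 scale. Nrxn3, a presynaptic adhesion gene, was at 1752 and 1781 CPM against 6755 and 6075 CPM.

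Receptor lists differed between the 2 comparisons. Of 16 ionotropic glutamate receptor genes tested against GABAergic nuclei 0 passed 2-fold in both libraries in either direction, as did 0 of 6 metabotropic and 0 of 17 GABA-A and glycine receptor genes. Those counts are near the shares over all genes, 0.177% higher and 0.541% lower. Against Tcf7l2-positive nuclei 1 of 17, 2 of 6 and 2 of 16 were lower and 0 higher, beside 1.65% of all genes lower and 0.365% higher.

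**Figure D4:**
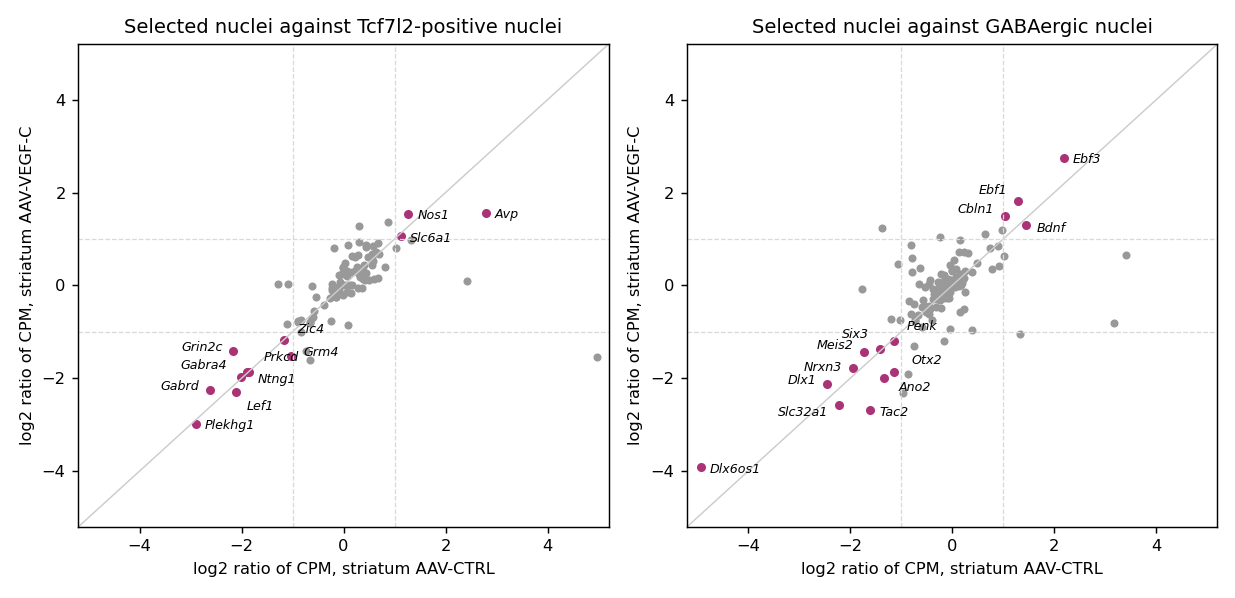
Log2 ratios of CPM of listed genes in selected nuclei over Tcf7l2-positive nuclei (left) and over GABAergic nuclei (right), AAV-CTRL on the x axis and AAV-VEGF-C on the y axis; dashed lines mark 2-fold, and coloured points pass it in both libraries. Plekhg1, Lef1, Ntng1 and Prkcd lie at the lower left on the left panel, and Ebf3 and Ebf1 at the upper right on the right panel.

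Between the AAV labels, 146 of 5305 genes with at least 100 UMIs over both libraries (2.75%) were at least 1.5-fold higher in the selected nuclei of AAV-VEGF-C and 72 (1.36%) at least 1.5-fold lower, around a median log2 ratio of -0.0007. With 1 library a label these are differences between 2 libraries. Within the neuron groups the counts were 101 and 59 of 4392 genes, of which 69 and 32 were shared with the first counts.

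The largest ratios in AAV-VEGF-C belonged to haemoglobin genes, which mark red blood cells. Hbb-bs had 166 UMIs in AAV-CTRL and 946 in AAV-VEGF-C, or 124 and 768 CPM, a log2 ratio of 2.63 (2.39 to 2.88). Hba-a2, Hbb-bt and Hba-a1 had log2 ratios of 2.24, 2.23 and 2.04. Hbb-bs was also higher by 0.97 on the log2 scale over all nuclei of the library and by 1.48 in the neuron groups. GABAergic nuclei of the same libraries shared the direction, with log2 ratios of 0.89 for Hbb-bs, 0.33 for Hba-a2, 0.62 for Hbb-bt and 0.52 for Hba-a1. The Tcf7l2-positive nuclei did not, with log2 ratios of -0.08 for Hbb-bs, -0.55 for Hba-a2, -0.64 for Hbb-bt and -0.41 for Hba-a1. In oligodendrocyte nuclei Hbb-bs had 0.16. The part of haemoglobin in the other differences was not tested. Group 2 held 602 of the Hbb-bs UMIs of both libraries and was 27.7% of selected nuclei in AAV-VEGF-C and 17.6% in AAV-CTRL.

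Among neuronal genes, Tac1 was at 41 CPM (55 UMIs in 31 nuclei) in AAV-CTRL and at 81.1 CPM (100 UMIs in 38 nuclei) in AAV-VEGF-C, a log2 ratio of 0.99 (0.50 to 1.49), and of 1.41 in the neuron groups. Cck, the cholecystokinin gene, was at 67.1 and 114 CPM, a log2 ratio of 0.76 (0.37 to 1.16). Hrh3, the histamine receptor that limits transmitter release, was at 25.3 and 56 CPM (log2 1.14, 0.53 to 1.78), found in 32 and 53 nuclei. Its log2 ratio was 0.43 in Tcf7l2-positive nuclei, 0.44 in GABAergic nuclei and 0.40 over the whole library. The mitochondrial gene mt-Nd3 was at 181 and 416 CPM (log2 1.20, 0.98 to 1.43). Its log2 ratio was 0.75 in Tcf7l2-positive nuclei, 0.77 in GABAergic nuclei and 0.55 over the whole library. Smim19, Nmt1 and Ppm1g had log2 ratios between 0.96 and 0.98, and between 0.21 and 0.42 over the whole library.

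The genes with the lowest ratios were the peptide genes held by single nuclei. Oxt had a log2 ratio of -4.02, and of -2.78 without the nucleus with most UMIs of each library. Avp had -2.20, and -1.42 without those nuclei. Cartpt had a log2 ratio of -1.28, which became 0.09 once the nucleus with most UMIs was left out on each side. These 3 values rest on few nuclei. Ptgds, a prostaglandin synthase gene of the meninges and oligodendrocytes, had 775 and 386 UMIs and a log2 ratio of -0.88, but 0.17 in the neuron groups.

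Cfap69, Klhl15, Kiz, Cdk19, Ranbp17 and Orc4 had log2 ratios between -1.10 and -0.91, with 84 and 36 UMIs for Cfap69, a gene of cilia and flagella, and 142 and 68 for Ranbp17, a nuclear transport gene found in 108 and 55 nuclei. Over all nuclei of the library these 6 genes had log2 ratios between -0.32 and -0.06. The log2 ratio of Ranbp17 was -0.94 in the neuron groups, as in all selected nuclei.

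**Figure D5:**
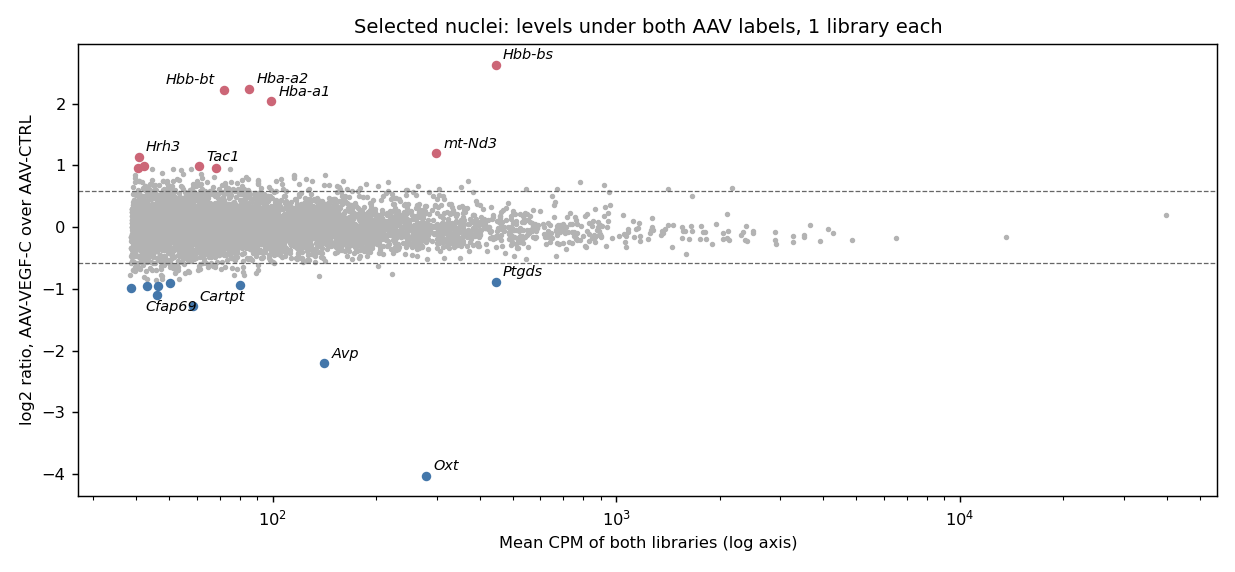
Log2 ratio of CPM, AAV-VEGF-C over AAV-CTRL, in selected nuclei (y axis) by mean CPM (log x axis) for 5305 genes; dashed lines mark 1.5-fold, and coloured points are the 10 genes with the highest and the 10 with the lowest ratio. Haemoglobin genes lie at the top, Oxt and Avp at the bottom, and most genes lie between the dashed lines.

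Counts by list were near the shares over all genes, 2.75% higher and 1.36% lower, for the synaptic lists. Of the tested genes, 0 of 16 ionotropic glutamate receptors, 0 of 6 metabotropic glutamate receptors, 0 of 15 GABA-A and glycine receptors, 0 of 4 cerebellins and neurexins, 0 of 5 thalamic genes and 0 of 5 regional transcription factors passed in either direction, and their median log2 ratios lay between -0.13 and 0.02. Grm8, a presynaptic glutamate receptor gene, had -0.39 (-0.57 to -0.21) and Grik1, a kainate receptor gene, 0.32 (0.11 to 0.53). Of 9 tested neuropeptide genes 3 were higher and 3 lower, beside 2.75% and 1.36% of all genes. The higher ones were Tac1, Cck and Pmch, the lower ones Oxt, Avp and Cartpt. Pmch was also higher over the whole library, by 1.22 on the log2 scale against 0.94 in selected nuclei.

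Of the regional genes described above, several differed between labels by less than counting error. Sim1 had a log2 ratio of 0.06 (-0.59 to 0.70), Lmx1a of -0.01 (-0.75 to 0.73), Ebf3 of -0.19 (-0.57 to 0.18), Ebf1 of 0.02 (-0.21 to 0.24) and Lef1 of -0.13 (-0.54 to 0.27). The intervals of Sim1 and Lmx1a reach past 1.5-fold on both sides, so a difference of that size was not detectable at this depth. The intervals of other regional genes excluded 0. Tshz1, a zinc finger factor gene, had 62 and 29 UMIs and a log2 ratio of -0.97 (-1.66 to -0.32), and Esr1 had 36 and 17 UMIs and -0.96 (-1.88 to -0.09). Tfap2b, of the midbrain list, had 19 and 34 UMIs and 0.96 (0.11 to 1.85), and Lhx4 had 0 and 10 UMIs. These 4 genes, named after their values were seen, had fewer than 100 UMIs and are not among the genes counted above. The olfactory sensory list, in contrast, was at 88.7 CPM in AAV-CTRL and 33.3 CPM in AAV-VEGF-C, with 31 and 3 UMIs of Omp, the olfactory marker protein gene. Gng13 alone of the list was not lower, with 23 and 26 UMIs and a log2 ratio of 0.30 (-0.57 to 1.17). For the other genes the difference ran through the libraries: over all nuclei Omp had a log2 ratio of -2.19 and Stoml3 of -1.97, while Gng13 had 0.08. The whole list had -0.57 (-0.87 to -0.27) in oligodendrocyte nuclei and -0.48 (-0.70 to -0.26) in GABAergic nuclei.

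Marker genes of other cells differed between labels beside these results. The 3 fibroblast genes were at 54.4 and 20.3 CPM, and the 3 genes of oligodendrocyte precursors at 32 and 78.7 CPM. The 4 oligodendrocyte genes were at 952 and 1082 CPM. The 2 microglial genes together were at 58.9 and 88.4 CPM but went opposite ways. P2ry12 had 53 and 94 UMIs (log2 0.95), and Cx3cr1 had 26 and 15 (log2 -0.67). Scrublet called 13 of 301 AAV-CTRL nuclei (4.32%) and 1 of 260 AAV-VEGF-C nuclei (0.385%) doublets. Their part in the ratios was not tested, except that leaving doublets out gave 144 higher and 62 lower genes.

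Among genes of the vectors' pathway, Vegfc, Flt4 and Kdr were low, and Nrp2 was near its level in GABAergic nuclei. Vegfc had 9 UMIs in the selected nuclei of each label (6.71 and 7.3 CPM), and over whole striatum libraries it was at 12.9 CPM in AAV-CTRL and 12.1 CPM in AAV-VEGF-C. Counts at the 3′ end of the mouse gene need not include a vector transcript, so this does not check the labels. Flt4, which encodes VEGFR3, had 1 and 0 UMIs, and Kdr, which encodes VEGFR2, had 3 and 1. The co-receptor gene Nrp2 was at 127 and 140 CPM in 94 and 84 nuclei, above the 69.9 and 54.5 CPM of Tcf7l2-positive nuclei and close to the 127 and 132 CPM of GABAergic nuclei. Nrp1 was at 118 and 110 CPM. Of neurotrophin receptor genes, Ntrk2 was at 510 and 494 CPM and Ntrk3 at 569 and 549 CPM, and 0 of 4 tested genes of that list passed 1.5-fold.

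The same UMI rule selected 21 of 17168 nuclei in the cortex AAV-CTRL library (0.122%) and 29 of 20370 in the cortex AAV-VEGF-C library (0.142%). Neurod6, a factor of cortical excitatory neurons, was found in 5 and 9 of them, against 7 of 301 and 7 of 260 in the striatum libraries. Sim1 was found in 0 and 1 of them and Lmx1a, Zic1, Oxt and Avp in 0, which at 21 and 29 nuclei allows shares of up to 14.3% and 10.3%.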

How the data were processed

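Nuclei were isolated from pooled brains of each AAV group, 4 libraries in all, 1 per region and AAV label. The authors prepared 10x 3′ libraries and deposited raw UMI counts per gene and nucleus for 31053 genes. Per the file headers these came from Cell Ranger 5.0.1, while the submitters' processing notes name 5.1.1 and the build mm10. The annotation and the use of intronic reads are not given in the sources used here. The methods state that nuclei under a UMI minimum and clusters of low mean count were discarded, and the files hold the 78728 nuclei that remained. Strand and exact gene models are also not given, and overlapping genes such as Gad1 and Gad1os cannot be told apart.

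Nuclei were selected by the UMI rule, with no further filter and no filter on doublets. The striatum libraries held 77253372 and 67773329 UMIs (medians 2272 and 2647 per nucleus), and the selected nuclei 1341888 and 1232499. UMIs were summed per library and set and given as CPM. Intervals (95%, for counting error only) were exact Poisson for CPM, Clopper-Pearson for shares, and conditional binomial for ratios of CPM. A count of 0 was taken to allow 3. Between labels, genes with at least 100 UMIs were called at 1.5-fold, and between sets of nuclei at 2-fold in both libraries. The named genes were the 10 highest and 10 lowest ratios whose interval excluded 0 between labels, the 10 per direction with the largest smaller ratio of both libraries between sets, and the listed genes.

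Groups came from Leiden clustering of all selected nuclei at once (leidenalg 0.10.2, 3000 variable genes, 30 components, 15 neighbours, resolution 1). A group counted a marker at 2-fold over the other selected nuclei in at least 10% of its nuclei, and leading genes were ranked by fold (5 CPM added) among genes in at least 20%. The marker rule for groups was set after seeing the data. Doublets were called with Scrublet in scanpy 1.11.5. The libraries shared 115 barcodes between the striatum labels, 0 of them among selected nuclei. Of 256 listed genes 1 was left out, because its symbol stood on more than 1 row. Coordinates are from GENCODE M21. The rule, the lists and the comparisons were chosen with earlier results of these data known. Alternatives were other UMI minimums, no doublets, thinning to 2000 UMIs, other scalings and other resolutions. Code was tested on simulated counts. A few listed genes are not reported here.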

Additional observations from a re-analysis of the deposited data

How the results depend on the processing

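The neuron groups alone and leaving out the nucleus with most UMIs were chosen as settings after seeing the data. No paired analysis was possible because each AAV label had 1 striatum library and no replicate numbers. The rule sets the number of nuclei: in AAV-CTRL it gave 1006 with a Slc17a6 minimum of 1 UMI, 104 with 3, 197 with a glial and vascular sum of 0 and 185 after thinning, against 301, and in AAV-VEGF-C 697, 105 and 148 for the first 3 and 165 in the neuron groups, against 260. The log2 ratio of shares was -0.088 with 1 UMI, against 0.23. Clustering gave 3 groups at resolution 0.5 and 11 at 1.5, against 7, and neuron groups held 70.8% at 1.5, against 65.6%.

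Between the AAV labels, higher and lower genes numbered 398 and 243 with a minimum of 50 UMIs, 59 and 15 with 200, and 253 and 152 from means of scaled nuclei, against 146 and 72. Fewer genes are tested at a higher minimum, and the cause of the rise with scaled nuclei was not tested. Avp turned to a log2 ratio of 1.63 with at least 3 Slc17a6 UMIs, Cartpt to 0.32 there and to 0.087 without the nucleus with most UMIs (the top nucleus), and Ptgds to 0.17 in the neuron groups.

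Log2 ratios of summed lists moved as follows. The paraventricular and supraoptic list, at -2.69, became -3.40 with a glial sum of 0, -3.34 in the neuron groups, -2.14 with scaled nuclei and -2.16 without the top nucleus. The lateral hypothalamic list, at -0.18, became 0.65 with 3 Slc17a6 UMIs, -0.50 in the neuron groups, 0.25 with scaled nuclei and 0.38 without the top nucleus. The thalamic list, at -0.03, became 0.065 with 3 Slc17a6 UMIs, 0.11 (glial sum of 0), 0.093 (neuron groups) and -0.18 (scaled nuclei). The dopaminergic list, at 1.43, became 1.91 with 3 UMIs, 0.80 with a glial sum of 0, 1.07 with scaled nuclei and 1.00 without the top nucleus. The telencephalic list became 0.49 with 3 UMIs against 0.08, the Cajal-Retzius list -0.69 with a glial sum of 0 against -0.05, and the olfactory sensory list -0.36 in the neuron groups against -1.41. Of 102 list ratios under the alternatives, 83 moved by less than their counting interval. With under 50 UMIs a gene, as for Sim1 and Lmx1a, a 1.5-fold difference could not be resolved.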
